A study of Mus musculus with 8 samples.

Results

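The genes described are 10 components of the microRNA pathway in mouse: Drosha, Dgcr8, Xpo5, Dicer1, Tarbp2, Ago1, Ago2, Ago3, Lin28a and Trim71. They are a list of named genes with no threshold on their values, taken from a table of 55421 gene entries, and all 10 were among the 15137 genes tested. Expression was measured by QuantSeq, which counts reads from the 3′ ends of polyadenylated RNA, in E14 mouse embryonic stem cells of 129/Ola background kept in serum with LIF on gelatin. The 4 groups hold 2 libraries each, described as biological duplicates. The siTfap4 cells lack the microRNA cluster spanning Mir290a and Mir295 and received 5 nM of a siPOOL, a mixture of small interfering RNAs, against Tfap4 for 36 hours. The siNeg cells carry the same deletion and received the negative control siPOOL. The KO cells carry the deletion and the WT cells do not, and neither received a siPOOL. The siPOOL libraries were prepared as one set and the KO and WT libraries as another, as the series design states, and whether the KO cells come from 1 clone is not stated. The titles carry 1 tag shared by KO replicate 2 and WT replicate 1 and a different tag for each of KO replicate 1 and WT replicate 2, with no meaning given, and these were not used.

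A microRNA gene is transcribed as a long primary transcript, which the Microprocessor of DROSHA and DGCR8 cuts into a hairpin. XPO5 carries the hairpin to the cytoplasm, DICER1 with TARBP2 trims it to a duplex, and an Argonaute protein keeps 1 strand and uses its seed to find target mRNAs. LIN28A binds let-7 precursors and blocks their maturation, and TRIM71 is an RNA-binding protein that represses mRNAs. The mRNAs of Lin28a and Trim71 are known targets of let-7, a microRNA of differentiated cells, while this cluster is the leading microRNA locus of embryonic stem cells.

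Of the deleted microRNAs, 6 are shown for how their seeds compare, with bases 2 to 8 in capitals, as given by RefSeq for GRCm38.p6. They lie on the plus strand of chromosome 7, and miR-292a-3p of the same cluster is not shown.
miR-290a-3p, chr7:3218674-3218697: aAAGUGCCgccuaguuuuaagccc
miR-291a-3p, chr7:3218968-3218989: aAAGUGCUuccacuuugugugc
miR-291b-3p, chr7:3219529-3219550: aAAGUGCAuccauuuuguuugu
miR-293-3p, chr7:3220390-3220411: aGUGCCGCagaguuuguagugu
miR-294-3p, chr7:3220691-3220712: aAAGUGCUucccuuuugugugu
miR-295-3p, chr7:3220815-3220837: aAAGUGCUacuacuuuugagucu
miR-291a-3p, miR-294-3p and miR-295-3p share 1 seed, and miR-290a-3p and miR-291b-3p differ from it at the last seed base. The seed of miR-293-3p is another one, and no words were searched for it. A mature let-7, let-7a-5p, is shown for its different seed.
let-7a-5p, chr13:48538239-48538260, minus strand: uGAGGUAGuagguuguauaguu

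Words that pair with these seeds were counted in the longest annotated 3′ untranslated region of each gene, on its own strand. For the cluster the word AGCACTT pairs with the seed shared by miR-291a-3p, miR-294-3p and miR-295-3p. The word GGCACTT pairs with that of miR-290a-3p, and the word TGCACTT with that of miR-291b-3p. The word GCACTTA pairs with seed bases 2 to 7 and ends on an A. At least 1 of these was present in 33.98% of 12786 tested genes. For let-7 the word CTACCTC pairs with bases 2 to 8, and the word TACCTCA takes bases 2 to 7 and an A, and 18.5% of the same genes held at least 1. Overlapping words were counted as 1 match. Drosha, Dgcr8 and Xpo5 held no match of either kind. Dicer1 held 2 cluster matches and no let-7 match, Ago1 held 3 and 1, Ago2 held 2 and 4, and Ago3 held 7 and 3. Lin28a held no cluster match and 2 let-7 matches, and Trim71 held 1 and 6. The lengths searched ran between 169 bases in Drosha and 12742 bases in Ago3, so the counts are not per length. A match is a stretch of letters and not a measured site. Tarbp2 is left out because the transcript used for it counts coding exons as untranslated.

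The matches of the 3 genes called between KO and WT cells are shown in GRCm38, each as 30 bases of the minus strand with the match in capitals. For Ago1 these are the 3 cluster matches.
Ago1 first, chr4:126438807-126438836: taaggcactatGGCACTTAgctctgaggtg
Ago1 second, chr4:126438519-126438548: ccattgacattTGCACTTtcagacgtgaca
Ago1 last, chr4:126435293-126435322: gtgtatgatgtTGCACTTAgcagccatgtg
For Lin28a these are both let-7 matches, and for Trim71 the cluster match and the first and last of the 4 let-7 matches of 8 bases.
Lin28a first, chr4:134005178-134005207: agcctgttgaaCTACCTCAtttttgccgat
Lin28a second, chr4:134004540-134004569: tcgccacaaacCTACCTCActgtgttgaaa
Trim71 cluster, chr9:114510070-114510099: aattggtgctaAGCACTTtggagagtgtac
Trim71 let-7 first, chr9:114512461-114512490: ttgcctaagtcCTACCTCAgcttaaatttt
Trim71 let-7 last, chr9:114509010-114509039: caaaaagttgtCTACCTCAcgtcggcaccg

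The libraries held between 8326675 and 12726123 counts. Entries of the deleted cluster held 88 and 39 counts in WT and 0 in all 6 libraries of KO cells. Tfap4 stood at 12.3 and 15.8 CPM (counts per 1000000 counts of the library, scaled by TMM) in siTfap4, against 34.4 and 37.3 CPM in siNeg, a log2 fold change of -1.35 (adjusted p = 0.00365), which was lost without siTfap4 replicate 1 (adjusted p = 0.0575). It stood at 48.9 and 42.0 CPM in KO, against 19.6 and 16.4 CPM in WT (1.33, adjusted p = 0.00363), which was lost without KO replicate 1 (adjusted p = 0.0533). The summed level of 8 pluripotency markers was 2168 and 2316 CPM in siTfap4, 3261 and 3051 CPM in siNeg, 3308 and 3311 CPM in KO, and 3085 and 3389 CPM in WT. Of all genes tested, 15.4% were called at an adjusted p below 0.05 between siTfap4 and siNeg (4.36% higher and 11.1% lower in siTfap4), 9.95% between KO and WT (5.99% higher and 3.96% lower in KO), and 0.00661%, which is 1 gene, between siNeg and KO. The p-values measure the spread between duplicates pooled over the 4 groups. That spread was not equal. The median absolute log2 difference of duplicates was 0.41 in siTfap4, 0.37 in siNeg, 0.23 in KO and 0.32 in WT. The joint fit of 15137 genes called 1506 between KO and WT and 2334 between siTfap4 and siNeg. With the 4 libraries of a comparison fitted alone, these were 1861 of 14427 and 1793 of 13675.

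Between siTfap4 and siNeg cells, 1 of the 10 genes rose and 1 fell. Xpo5 fell by 1.28 on the log2 scale and Lin28a rose by 0.81. Between KO and WT cells, Ago1 rose by 0.99, and Lin28a and Trim71 fell by 0.84 and 0.72. No gene of the 10 was called between siNeg and KO cells. These are 2 of 10 genes beside 15.4% of all genes, 3 of 10 beside 9.95%, and 0 of 10 beside 0.00661%.

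**Figure D1:**
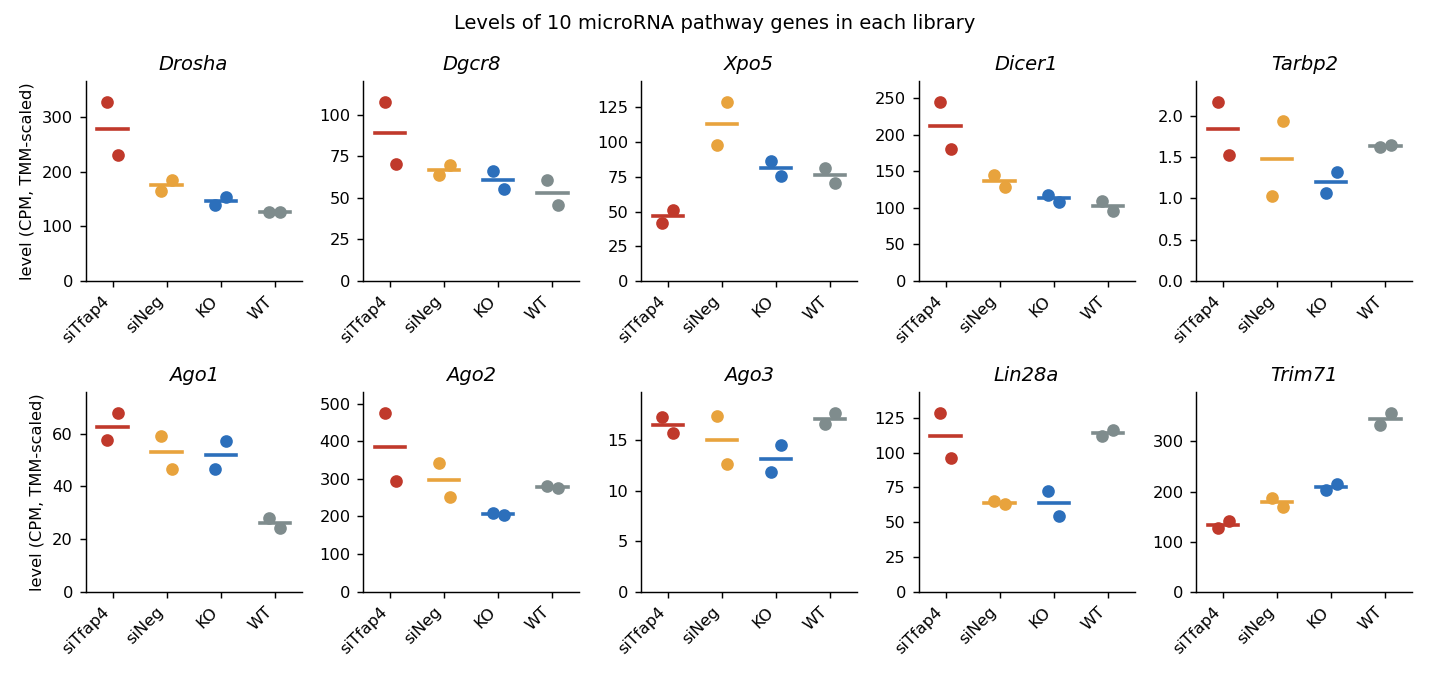
Level of each of the 10 genes in CPM (vertical axes from 0) in the 2 libraries of siTfap4, siNeg, KO and WT, with points for libraries and lines for means. Xpo5 is lowest in siTfap4 (41.9 and 51.2 CPM), Ago1 is lowest in WT (27.8 and 24.2 CPM), and Lin28a is lower in siNeg and KO than in siTfap4 and WT.

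The Microprocessor genes were not called in any comparison. Drosha, the nuclease, lies on the plus strand of chromosome 15 (ENSMUSG00000022191, chr15:12824815-12935291). It had 327 and 232 CPM in siTfap4, against 166 and 186 CPM in siNeg, and 138 and 154 CPM in KO, against 127.1 and 127.0 CPM in WT. The 4 groups did not overlap in Drosha and their means ran in the order siTfap4, siNeg, KO and WT. The log2 fold change was 0.67 (SE 0.23, adjusted p = 0.0619) for siTfap4 against siNeg and 0.20 (SE 0.23, adjusted p = 0.678) for KO against WT. The first value passed the threshold without siTfap4 replicate 2 (0.88, adjusted p = 0.0177) and in a DESeq2 Wald test (adjusted p = 0.0408).

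Dgcr8 encodes the partner that binds the primary hairpin, and in mouse cells the Microprocessor also cuts the Dgcr8 mRNA. It had 107.5 and 70.3 CPM in siTfap4, against 64.1 and 69.9 CPM in siNeg, and 66.1 and 55.4 CPM in KO, against 60.5 and 45.8 CPM in WT. Both siTfap4 libraries were above both siNeg libraries, the second by little, and KO and WT overlapped. The log2 fold change for siTfap4 against siNeg was 0.41 (SE 0.26, adjusted p = 0.305) and that for KO against WT 0.19 (SE 0.26, adjusted p = 0.730). The first value was -0.03 after correcting for the GC content of its end. Its 3′ end lies within 300 bases of Trmt2a on the other strand and of Gm49776 on its own, and the strand setting of the counting is not given in the sources used here.

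Xpo5, the exporter of precursor hairpins, had the largest change of the 10 genes in the 3 comparisons between groups, and it was lower in siTfap4 cells. It lies on the plus strand of chromosome 17 (ENSMUSG00000067150, chr17:46202782-46243598). It had 329 and 435 counts (41.9 and 51.2 CPM) in siTfap4, against 1144 and 1330 counts (97.9 and 128.6 CPM) in siNeg. It had 86.7 and 75.9 CPM in KO, against 81.7 and 70.7 CPM in WT. Both siTfap4 libraries were below the other 6, and KO and WT overlapped.

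The mean of Xpo5 was 46.55 ± 6.64 CPM in siTfap4 and 113 ± 21.7 CPM in siNeg (SD, n = 2 each), 2.43-fold lower in siTfap4 (log2 -1.28, SE 0.25, adjusted p = 0.00271). The call remained with each of the 4 libraries left out in turn, at log2 values between -1.48 and -1.08 and adjusted p between 0.00441 and 0.0416. With the correction for base composition the value was -0.99 (adjusted p = 0.0139). For KO against WT it was 0.09 (SE 0.24, adjusted p = 0.870). RAN, the GTPase whose GTP form XPO5 needs to bind its cargo, had an mRNA level of 158.5 and 428 CPM in siTfap4, against 822 and 1537 CPM in siNeg. Ran thus also fell (log2 -2.01, SE 0.42, adjusted p = 0.00820). Its call did not remain when siNeg replicate 2 was left out (log2 -1.50, adjusted p = 0.0549) or with no filter on low counts (adjusted p = 0.134), and without siTfap4 replicate 2 the value was -2.91.

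Dicer1, the nuclease that trims hairpins to duplexes, had 244.5 and 180.1 CPM in siTfap4, against 145.1 and 128.8 CPM in siNeg, and 118 and 109 CPM in KO, against 109 and 95.2 CPM in WT. Both siTfap4 libraries were above the other 6, and KO and WT overlapped in range. The log2 fold change was 0.63 (SE 0.23, adjusted p = 0.0751) for siTfap4 against siNeg, and it passed the threshold without siTfap4 replicate 2 (0.82, adjusted p = 0.0278) and with the correction for base composition (0.84, adjusted p = 0.0263). For KO against WT it was 0.15 (adjusted p = 0.763). Tarbp2, a double-stranded RNA-binding partner of DICER1, held only 12 to 20 counts in a library, and its groups overlapped in each neighbouring pair. Its log2 fold change was 0.33 (SE 0.55) for siTfap4 against siNeg and -0.45 (SE 0.54) for KO against WT. Neither value was called, and the smallest difference detectable at these counts was not estimated. Its 3′ end lies within 300 bases of Npff and Gm28047 on the other strand, and the strand setting of the counting is not given. Whether this lowers its counts was not tested.

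**Figure D2:**
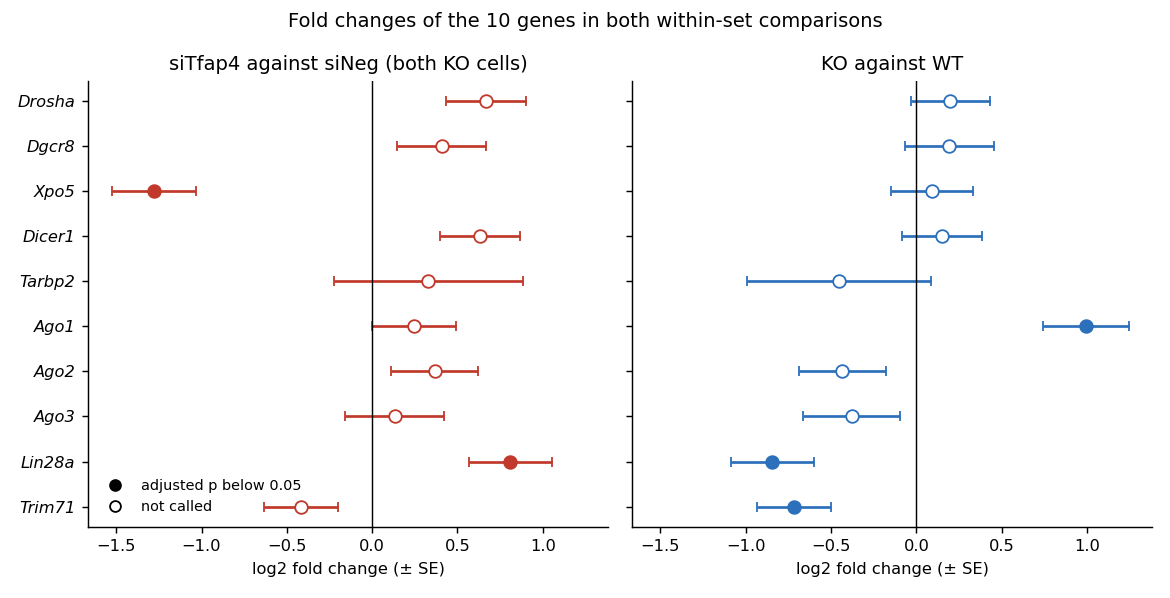
Log2 fold change (horizontal axes) with its SE for each gene, in siTfap4 against siNeg on the left and KO against WT on the right, with filled points for an adjusted p below 0.05. Lin28a is called in both comparisons, at 0.81 on the left and -0.84 on the right.

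Among the Argonaute genes, Ago1 rose in KO cells relative to WT, and Ago2 and Ago3 were not called. Ago1 lies on the minus strand of chromosome 4 (ENSMUSG00000041530, chr4:126435012-126468583) and encodes an Argonaute without the slicing role of AGO2. It had 46.6 and 57.2 CPM in KO, against 27.8 and 24.2 CPM in WT. The siPOOL libraries lay near KO, at 57.5 and 67.7 CPM in siTfap4, against 59.0 and 46.7 CPM in siNeg. All 6 libraries of cells without the cluster were above both WT libraries.

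The Ago1 mean was 51.9 ± 7.48 CPM in KO and 26.01 ± 2.57 CPM in WT (SD, n = 2 each), 1.99-fold higher in KO (log2 0.99, SE 0.25, adjusted p = 0.0189). The direction remained and the call was lost without KO replicate 1 (log2 1.14, adjusted p = 0.0620), KO replicate 2 (0.85, 0.199), WT replicate 1 (1.11, 0.0639) or WT replicate 2 (0.90, 0.135). In the 9 other settings that kept both libraries of each group, Ago1 was called in KO against WT in all 9. For siTfap4 against siNeg the value was 0.24 (SE 0.25, adjusted p = 0.534). The last of its printed cluster matches lies 299 bases from the annotated end of the transcript.

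Ago2, the slicing Argonaute, had 475 and 293 CPM in siTfap4, against 343 and 252.5 CPM in siNeg, and 210 and 204.5 CPM in KO, against 282 and 277 CPM in WT. Both KO libraries were below both WT libraries, while the siPOOL groups overlapped. The log2 fold change was 0.37 (SE 0.25, adjusted p = 0.347) for siTfap4 against siNeg and -0.43 (SE 0.26, adjusted p = 0.335) for KO against WT. With the correction for base composition the first value was 0.76 (adjusted p = 0.0677). Chrac1 lies on the other strand within 300 bases of its 3′ end. Ago3 had 17.3 and 15.8 CPM in siTfap4, against 17.4 and 12.7 CPM in siNeg, and 11.8 and 14.6 CPM in KO, against 16.6 and 17.7 CPM in WT. The log2 fold change of Ago3 was 0.13 (SE 0.29, adjusted p = 0.798) for siTfap4 against siNeg and -0.38 (SE 0.28, adjusted p = 0.473) for KO against WT. Ago3 was not called, and both its KO libraries were below both WT libraries. It held the most cluster matches of the genes counted, in the longest region searched, and the part of these matches was not tested.

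Lin28a was lower in KO cells than in WT, and higher in siTfap4 cells than in siNeg. It lies on the minus strand of chromosome 4 (ENSMUSG00000050966, chr4:134003330-134018841). It had 128.5 and 96.1 CPM in siTfap4, against 65.3 and 62.8 CPM in siNeg, and 72.6 and 54.6 CPM in KO, against 112 and 117 CPM in WT. Its order of means was WT (114 CPM), siTfap4 (112 CPM), siNeg (64.0 CPM) and KO (63.6 CPM). The siTfap4 and WT libraries overlapped, as did siNeg and KO, and these pairs did not overlap with each other.

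The Lin28a mean of 63.6 ± 12.7 CPM in KO and 114 ± 3.33 CPM in WT (SD, n = 2 each) gave a log2 fold change of -0.84 (SE 0.24, adjusted p = 0.0357). It was also called in all 9 other settings that kept both libraries of each group. That call was lost without KO replicate 1 (adjusted p = 0.0977), KO replicate 2 (0.380), WT replicate 1 (0.112) or WT replicate 2 (0.146). The mean of 112 ± 22.9 CPM in siTfap4 and 64.0 ± 1.73 CPM in siNeg (SD, n = 2 each) gave 0.81 (SE 0.24, adjusted p = 0.0342). This call remained without siTfap4 replicate 2 (adjusted p = 0.0164) and was lost without siTfap4 replicate 1 (0.277), siNeg replicate 1 (0.139) or siNeg replicate 2 (0.107). It was also lost with the correction for base composition (log2 0.60, adjusted p = 0.104) and when the 4 siPOOL libraries were fitted alone (adjusted p = 0.0872).

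Trim71, known as a let-7 target from worm to mouse, lies on the minus strand of chromosome 9 (ENSMUSG00000079259, chr9:114507133-114564369) and fell in KO cells. It had 203 and 216 CPM in KO, against 332 and 357 CPM in WT. It had 127 and 140.4 CPM in siTfap4, against 188 and 169 CPM in siNeg. The 4 groups did not overlap in Trim71, and their means ran in the order WT, KO, siNeg and siTfap4, the reverse of the order in Drosha. Of these steps, only that between WT and KO in Trim71 was called. How often groups separate in such orders over all genes was not counted.

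The Trim71 mean of 209 ± 9.18 CPM in KO and 344 ± 17.4 CPM in WT (SD, n = 2 each) gave a log2 fold change of -0.72 (SE 0.22, adjusted p = 0.0447). The call was lost without KO replicate 1 (adjusted p = 0.327), KO replicate 2 (0.246), WT replicate 1 (0.133) or WT replicate 2 (0.202), and with no filter on low counts (0.0701). For siTfap4 against siNeg the value was -0.42 (SE 0.22, adjusted p = 0.206). Lin28a and Trim71 were both lower in KO than in WT. In siTfap4 against siNeg Lin28a rose and Trim71 had a negative value that was not called. Both genes hold 8-base let-7 matches. Ago2 and Ago3 also hold such matches and had values of -0.43 and -0.38 in KO against WT, not called. The lengths searched were 2775 bases in Lin28a, 5512 in Trim71, 11064 in Ago2 and 12742 in Ago3. The part of let-7 was not tested. In bulk RNA, fewer cells that express a gene and less RNA per cell cannot be told apart.

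**Figure D3:**
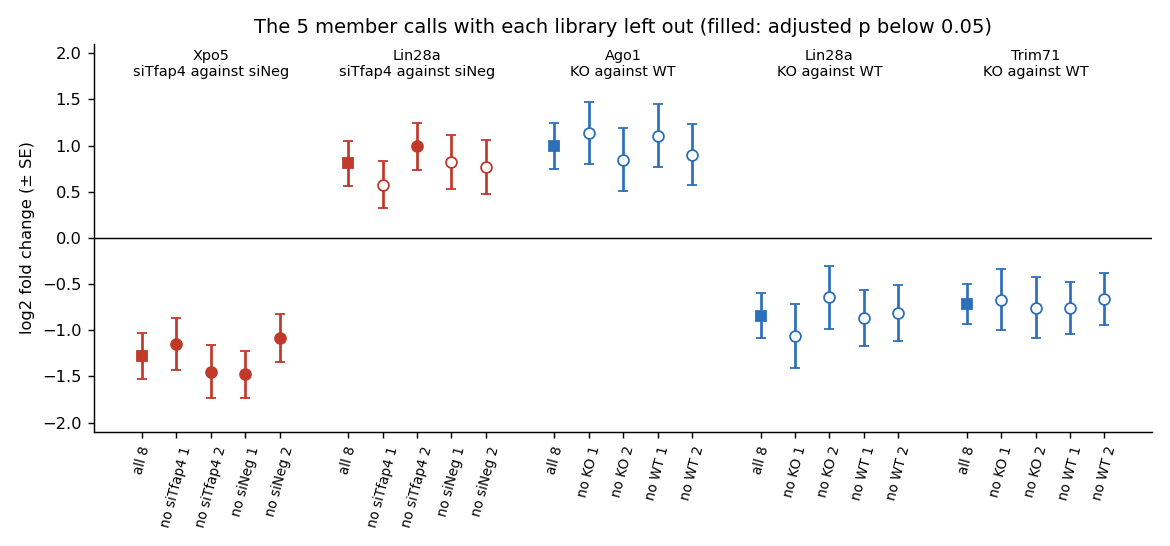
Log2 fold change with its SE (vertical axis) of the 5 calls among the 10 genes, with all 8 libraries (squares) and with each library of the comparison left out (circles), filled where the adjusted p is below 0.05. Xpo5 stays filled throughout, between -1.48 and -1.08, while Ago1, Lin28a and Trim71 in KO against WT lose their call without any 1 of the 4 libraries.

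The difference between the siTfap4 and the KO effect was tested in the same fit, a contrast chosen after the values were seen, and both effects share no library with each other. It was past the threshold for Lin28a (log2 1.65, SE 0.34, adjusted p = 0.00475) and Xpo5 (log2 -1.37, SE 0.34, adjusted p = 0.0137), beside 15.9% of all genes. Lin28a kept its call with each of the 8 libraries left out, at values between 1.41 and 1.86 and adjusted p up to 0.0419. Xpo5 lost it without KO replicate 1 (log2 -1.29, adjusted p = 0.0743) and WT replicate 2 (-1.29, 0.0557). For Ago1 the difference was -0.75 (SE 0.35, adjusted p = 0.159) and for Trim71 0.30 (SE 0.31, adjusted p = 0.534). For Ago2 it was 0.80 (SE 0.36, adjusted p = 0.143), and it passed the threshold with the correction for base composition (1.23, adjusted p = 0.0357) and without siTfap4 replicate 2 (1.08, adjusted p = 0.0330).

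Between siNeg and KO cells, which share the deletion and differ in transfection and in preparation set, 0 of the 10 genes were called by edgeR, and 0 had an unadjusted p below 0.05. A DESeq2 Wald test and limma-voom also called 0 of them. Of all 15137 tested genes, edgeR and limma-voom each called 1, and the DESeq2 Wald test called 138. Transfection and set cannot be told apart here, and this comparison shares its libraries with both others. The values ran between -0.23 for Trim71 (178 CPM on average in siNeg and 209 CPM in KO) and 0.52 for Ago2 (298 CPM in siNeg and 207 CPM in KO, adjusted p = 0.448). Xpo5 had 0.48 (SE 0.24, adjusted p = 0.466), Dicer1 0.27 and Lin28a 0.01.

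Levels also moved with the base composition of the 3′ end in the siPOOL set. The median log2 fold change of siTfap4 against siNeg over all tested genes was -0.47 for genes with 20 to 30% GC in the last 100 transcript bases, -0.10 for 30 to 40%, 0.27 for 40 to 50% and 0.45 for 50 to 60%. The same medians for KO against WT lay between -0.04 and 0.02. Xpo5 has 30% GC there, on the edge between 2 steps. Its value of -1.28 was below the lower quartile of -0.62 of genes with 30 to 40%. It was close to the lower quartile of -1.19 of genes with 20 to 30%. Dicer1 (32%) and Drosha (38%) were above the upper quartile of 0.33 of genes with 30 to 40%. Lin28a (41%), at 0.81, was above the upper quartile of 0.66 of genes with 40 to 50%, and Dgcr8 (52%), at 0.41, was near the median of 0.45 of genes with 50 to 60%.

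**Figure D4:**
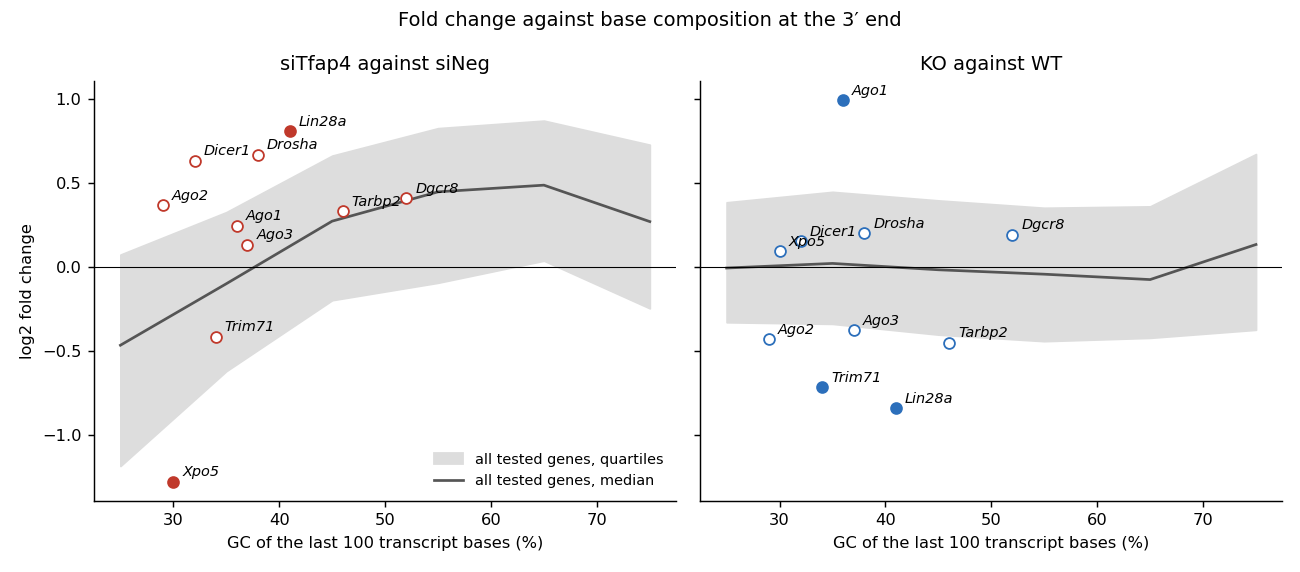
Log2 fold change (vertical axis) against GC percent of the last 100 transcript bases (horizontal axis), with the median (line) and quartiles (shading) of all tested genes in steps of 10% and points for the 10 genes, filled where called. In siTfap4 against siNeg on the left the median runs between -0.47 and 0.49, and Xpo5 lies below the shading; in KO against WT on the right the median stays near 0 below 60% GC.

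Markers of other cells moved between KO and WT. Of 9 primitive endoderm markers, 6 fell in KO, beside 3.96% of all genes. Their summed level was 25.6 and 23.6 CPM in KO, against 166 and 176 CPM in WT. It was 56.7 and 37.2 CPM in siTfap4, against 40.1 and 29.6 CPM in siNeg. No marker of this list was called there, beside 15.4% of all genes. Of 6 fibroblast or feeder markers, 2 could be tested and both fell in KO, beside 3.96% of all genes. Their sum over the list was 10.1 and 20.1 CPM in KO, against 28.7 and 49.8 CPM in WT. Col3a1 and Postn, collagen and matrix genes of fibroblasts, were at 0 in all 8 libraries. The part of these cells in the differences of Ago1, Lin28a and Trim71 was not tested. Of the 8 pluripotency markers, 1 fell in KO, beside 3.96% of all genes. In siTfap4 against siNeg 1 rose and 2 fell, beside 4.36% and 11.1% of all genes.

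The other genes of the pathway were followed in 7 lists with 106 genes, of which 99 were tested. In siTfap4 against siNeg 3 rose and 17 fell, which is 20.2% of them beside 15.4% of all genes. In KO against WT 5 rose and 1 fell, which is 6.06% beside 9.95%. The list median in siTfap4 against siNeg was -0.16, with 0.01 over all genes, and 0.04 in KO against WT, with -0.01 over all genes. With 1 of the 4 libraries left out in turn, most of these calls were lost in at least 1 fit, in both comparisons. Fewer of all tested genes were called in these fits too, except without siTfap4 replicate 2. The share of all calls that remained in every fit was not counted.

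Among 16 partners of the processing enzymes, 4 fell in siTfap4 cells, beside 11.1% of all genes, and none was called in KO cells, beside 9.95%. Hnrnpa2b1, an RNA-binding protein that helps the Microprocessor find its substrates, had 211 and 378 CPM in siTfap4, against 1063 and 668 CPM in siNeg (log2 -1.56, SE 0.29, adjusted p = 0.00212), a call that remained without each of the 4 libraries. Khsrp, which promotes processing of some precursors, had 123 and 107 CPM in siTfap4, against 249 and 183 CPM in siNeg (-0.91, adjusted p = 0.0177), a call lost without siTfap4 replicate 1 (0.0632), siTfap4 replicate 2 (0.0508) or siNeg replicate 1 (0.137) and with the correction for base composition (0.271). Ddx17, an RNA helicase of the Microprocessor, had a value of -0.87 (adjusted p = 0.0276), lost without siTfap4 replicate 1 (0.254), siNeg replicate 1 (0.0597) or siNeg replicate 2 (0.102) and with that correction (0.196). Ran is given above.

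Of 15 tested genes for loading and helping Argonaute, 3 fell in siTfap4 cells, beside 11.1% of all genes. None was called in KO cells, beside 9.95%. Tsnax, a subunit of the C3PO nuclease that removes the passenger strand of small interfering RNAs, had 5.98 and 6.48 CPM in siTfap4, against 43.2 and 25.04 CPM in siNeg (log2 -2.45, SE 0.32, adjusted p = 0.000134). Hspa8, a chaperone of the loading machinery, had 26.7 and 19.7 CPM in siTfap4, against 137 and 132 CPM in siNeg (-2.54, SE 0.28, adjusted p = 4.11e-05). Both calls remained without each library, but 59.4% of the 31-base words in the last 200 bases of Hspa8, and 45.3% in Tsnax, also occur in other genes, so their counts are uncertain. Limd1, an Argonaute cofactor, had -1.16 (adjusted p = 0.0353), lost without siTfap4 replicate 1 (0.297) or siNeg replicate 1 (log2 -0.54, 0.400) and with the correction for base composition (0.199). The chaperones Hsp90aa1 and Hsp90ab1, the most abundant of the list, were not called in KO against WT (-0.09 and -0.10).

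Of 26 deadenylation and decapping genes, through which microRNA targets are silenced, 1 rose and 6 fell in siTfap4 cells. This stands beside 4.36% and 11.1% of all genes. Pan2, the catalytic subunit of a deadenylase, had 3.44 and 3.42 CPM in siTfap4, against 48.7 and 21.6 CPM in siNeg, while KO had 44.6 and 45.2 CPM, against 47.0 and 41.2 CPM in WT. Both siTfap4 libraries were far below the other 6, and Pan2 was 10.2-fold lower in siTfap4 than in siNeg (log2 -3.36, SE 0.39, adjusted p = 5.81e-05), or -2.69 with the correction for base composition (adjusted p = 0.000148) and -2.66 without siNeg replicate 1 (adjusted p = 0.00119). Cnot8, a catalytic subunit of the CCR4-NOT deadenylase, fell by 1.59 (adjusted p = 0.000582), and Lsm14a, a processing body protein, fell by 1.43 (adjusted p = 0.00157), and these 3 calls remained without each library.

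Cnot7, the paralog of Cnot8, had -1.49 (adjusted p = 0.0153), lost without siTfap4 replicate 1 (0.106) or siNeg replicate 1 (0.126), and -2.56 without siTfap4 replicate 2. Parn, a poly(A)-specific ribonuclease, had -1.03 (adjusted p = 0.0157), lost without the same libraries (0.125 and 0.132). Cnot3, a scaffold subunit, had 0.94 (adjusted p = 0.0204), lost without siTfap4 replicate 1 (0.266), siNeg replicate 1 (0.113) or siNeg replicate 2 (0.0739) and with the correction for base composition (0.49, 0.183), and 54.7% of its end words are shared with other genes. In KO against WT 2 of this list rose, beside 5.99% of all genes. They were Cnot6 (0.82, adjusted p = 0.0437), a catalytic deadenylase subunit, and Dcp1b (1.20, adjusted p = 0.0479), a decapping cofactor. Cnot6 lost its call without KO replicate 1 (0.133), KO replicate 2 (0.286) or WT replicate 2 (0.330), and Dcp1b without KO replicate 1 (0.222), KO replicate 2 (0.163), WT replicate 1 (0.226) or WT replicate 2 (0.115). Dcp1b was called in 3 of 9 other settings, with an adjusted p of 0.0522 by a DESeq2 Wald test and 0.0527 in the 4 libraries alone, and Cnot6 in 7 of 9.

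Of 5 genes for uridylation and decay of let-7 precursors, 1 fell in siTfap4 cells, beside 11.1% of all genes. Tent2, a cytoplasmic poly(A) polymerase, had 2.93 and 2.47 CPM in siTfap4, against 13.6 and 7.35 CPM in siNeg (-1.96, adjusted p = 0.00576), lost without siTfap4 replicate 1 (0.0666) or siNeg replicate 1 (0.0897). None was called in KO against WT, where Tut4 and Tut7, the uridylyl transferases that act with LIN28, had -0.11 and -0.07.

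Of 17 reported let-7 targets, 1 rose and 3 fell in siTfap4 against siNeg, beside 4.36% and 11.1% of all genes. In KO against WT 1 rose and 1 fell, beside 5.99% and 3.96% of all genes. E2f2, a cell cycle transcription factor, had 146 and 113.5 CPM in siTfap4, against 62.5 and 59.7 CPM in siNeg, and 54.7 and 46.9 CPM in KO, against 86.6 and 112 CPM in WT. E2f2 was thus higher in siTfap4 (1.09, adjusted p = 0.00744) and lower in KO (-0.97, adjusted p = 0.0180), as Lin28a was. The first call was lost without siTfap4 replicate 1 (0.0856) or siNeg replicate 1 (0.0543), and the second without KO replicate 1 (0.0985), KO replicate 2 (0.212) or WT replicate 2 (0.160).

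Mycn, a MYC family oncogene, moved the other way, at 35.5 and 85.2 CPM in siTfap4, against 142.3 and 142.2 CPM in siNeg (-1.24, adjusted p = 0.0210), and 199.7 and 176 CPM in KO, against 103 and 67.2 CPM in WT (1.14, adjusted p = 0.0362). The first call was lost without siTfap4 replicate 1 (0.197), siNeg replicate 1 (0.123) or siNeg replicate 2 (0.0765) and with the correction for base composition (-0.81, 0.0921), and was -2.02 without siTfap4 replicate 2, and the second without KO replicate 1 (0.178), KO replicate 2 (0.0921) or WT replicate 2 (0.247). Ccnd1, cyclin D1, had 82.8 and 106 CPM in siTfap4, against 220 and 240.2 CPM in siNeg (-1.28, adjusted p = 0.00938), lost without siTfap4 replicate 1 (0.126) or siNeg replicate 1 (0.0543). Nras, a RAS GTPase, had -0.78 (adjusted p = 0.0328), lost without siTfap4 replicate 1 (0.119), siTfap4 replicate 2 (0.0699) or siNeg replicate 1 (0.194) and with the correction for base composition (-0.20, 0.580). As a list, the let-7 targets had a median of -0.09 in siTfap4 against siNeg and 0.08 in KO against WT.

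Of 7 tested mRNAs reported to be repressed by TRIM71, 1 rose in KO against WT and 1 in siTfap4 against siNeg. This stands beside 5.99% and 4.36% of all genes. Inhbb, the inhibin beta B subunit, had 132 and 161 CPM in KO, against 58.5 and 57.8 CPM in WT (1.33, SE 0.23, adjusted p = 0.00166). Cdkn1a, the cell cycle inhibitor p21, had 290 and 318 CPM in siTfap4, against 159 and 141 CPM in siNeg (1.02, SE 0.23, adjusted p = 0.00761). Both calls remained without each library of their comparison, and that of Cdkn1a was lost with the correction for base composition (0.62, adjusted p = 0.0887). Of 13 tested microRNA host genes, H19, the host of miR-675, rose in KO against WT (6.72 and 7.91 CPM in KO, against 1.38 and 2.52 CPM in WT, log2 1.93, adjusted p = 0.00642), a call lost without WT replicate 1 (0.0770). H19 was the only host gene called in KO against WT, beside 9.95% of all genes. No host gene was called in siTfap4 against siNeg, beside 15.4% of all genes.

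**Figure D5:**
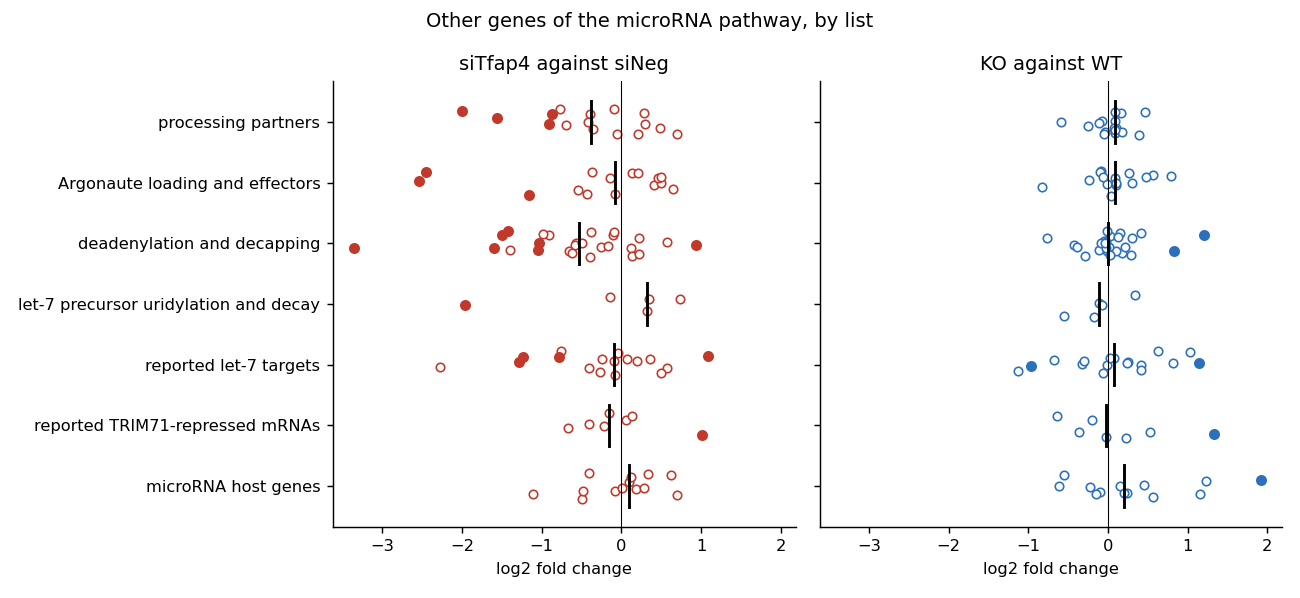
Log2 fold change (horizontal axes) of each tested gene of the 7 lists, in siTfap4 against siNeg on the left and KO against WT on the right, with filled points for an adjusted p below 0.05 and bars for the list medians; the vertical scatter within a list has no meaning. The deadenylation and decapping list has the lowest median on the left (-0.53), and Pan2 is its lowest point (-3.36).

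Promoters of 250 bases before to 50 after the start, from RefSeq in GRCm38.p6, were given for 9 of the 10 genes, all but Ago2. None held CAGCTG or CACGTG, the palindromic E-box words bound by TFAP4 and related factors, which 16.3% and 7.15% of 32851 promoters of the same length held. That says only that these letters are not in these windows.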

How the data were processed

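The authors' deposited table holds whole-number read counts per Ensembl gene in 8 libraries, and the submitters' processing notes name Trim Galore and the GRCm38 build. The sources used here do not name the aligner, the counter, its strand setting or the annotation. All 8 columns matched a sample, and 99.5% of identifiers had a GENCODE symbol. Library totals were 8326675 to 12726123 counts.

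The members and gene lists were chosen with earlier results of these data known. Genes named are the members, Tfap4, the cluster entries and, per list and comparison, the called genes, up to 6 with the lowest adjusted p, or, without a call, the 2 most abundant.

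Genes were filtered with filterByExpr (15137 left) and TMM-scaled, and edgeR 4.0.16 (quasi-likelihood, robust, R 4.3.3) was fitted to 4 group means, with Benjamini-Hochberg adjustment over all genes and a threshold of 0.05. The fit was tested on simulated data. CPM were computed here from the counts. The alternatives were DESeq2 1.42.0 (size factors, Wald test), limma-voom 3.58.1, other filters, a comparison's 4 libraries alone, a replicate block, a threshold of 0.1, a correction for GC of the last 100 transcript bases (a lowess curve per library, span 0.3) and each library left out, where the lone library of a group is assumed to vary like the others.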

Additional observations from a re-analysis of the deposited data

How the results depend on the processing

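With 2 libraries a group, each call rests on few values. A fit with 1 library left out leaves a group with 1 library. In both within-set comparisons fewer of all tested genes were called in such fits too, except without siTfap4 replicate 2. The SE of Ago1 in KO against WT was 0.25 with all libraries and 0.33 to 0.34 in these fits. Of the 10 genes, 3 were called between KO and WT and 0 in each fit with 1 library left out. Between siTfap4 and siNeg 2 were called, 1 with no filter on low counts or with the 4 libraries alone, 4 at a threshold of 0.1, and 1 to 4 with a library left out. For the difference of the effects, chosen after seeing the data, 2 were called, and 1 (without KO replicate 1 or WT replicate 2) to 3 with a library left out. Of the list genes, 6 were called between KO and WT (11 in its 4 libraries alone, 2 to 5 with a library left out), 20 between siTfap4 and siNeg (8 to 27), and 0 between siNeg and KO (1 by the DESeq2 Wald test or in its 4 libraries alone, 0 to 1 with a library left out).

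These uncalled values changed sign with the correction for base composition, alone and with the replicate block: Dgcr8 in siTfap4 against siNeg (-0.0263 and -0.0404) and in the difference of the effects (-0.28 and -0.30), Tarbp2 in siTfap4 against siNeg (-0.0106 and -0.000426) and Lin28a in siNeg against KO (-0.0627 and -0.0526). Smc4 in siTfap4 against siNeg changed sign with both (0.0176). With a library left out, sign changes occurred within these ranges. In KO against WT they were -0.0037 to 0.21 for Xpo5 and -0.14 to 0.38 for Ran. In siTfap4 against siNeg they were -0.0874 to 0.82 for Tarbp2, -0.0330 to 0.66 for Ago2 and -0.0919 to 0.37 for Ago3. In siNeg against KO they were -0.21 to 0.70 for Tarbp2, -0.15 to 0.19 for Ago1, -0.0533 to 0.41 for Ago3 and -0.18 to 0.23 for Lin28a. For Dgcr8 in the difference of the effects the range was -0.14 to 0.47. The cause was not tested. No called value of the 10 genes changed sign.

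Replicate numbers carry no stated link between groups, and same-numbered deviations correlated at -0.06 (KO with WT) and 0.13 (siTfap4 with siNeg). With the replicate block 2 of the 10 genes were called between KO and WT, without Trim71 (adjusted p = 0.0516), and 2 between siTfap4 and siNeg. Together with the correction for base composition the block gave a call to Ago2 in siTfap4 against siNeg (adjusted p = 0.0405). Among the list genes named, the block alone ended the calls of Cnot6 (0.0590), Dcp1b (0.0654) and Limd1 (0.0793).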
